A study of Mus musculus with 22 samples.

Results

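Krt8, Krt18, Krt19, Krt7, Epcam and Cdh1, the genes that mark simple epithelium, were followed across the cells of 2 mouse embryos at E10. Membership was by name: a gene was included if it was a row of the deposited count tables, and all 6 were, among 998 genes in all. The tables come from CosMx, an imaging method in which barcoded probes are read in place on a tissue section and each detected transcript is assigned to a segmented cell. The sections, 10 µm thick, were cut from 1 Nr4a1-/-Nr4a2-/- embryo (13 sections, numbered 1 to 13) and 1 Nr4a1+/+Nr4a2+/+ embryo (9 sections, numbered 14 to 22), called here the knockout and the wild-type sections. Sections of an embryo are not separate animals, so every test between the embryos compared sets of sections of 2 embryos and not genotypes. No slide held both genotypes, so that slide and embryo cannot be told apart. The paper and the labels differ on the number of sections of each genotype, and the labels were used.

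The tables held 37575 cells, of which 37570 had at least 10 transcripts and 10 genes and were kept, 21191 in the knockout and 16379 in the wild-type sections. A section had between 169027 and 887896 transcripts, and the median cell of a section had between 87 and 332. Of the targeted genes, Nr4a1 was at 1.74 to 2.65 transcripts per 10000 in the knockout and at 2.29 to 3.20 in the wild-type sections. Nr4a2 was at 3.08 to 5.09 and 3.37 to 6.13, so the ranges of both genes overlapped. The position of the probes against the deletion is not given in the sources used here, so these values do not check the genotype labels. File names carried the number 1 or 2, a possible slide, with 7 and 6 knockout and 4 and 5 wild-type sections. Cell names repeated between sections in 3410 cases, 0 of them with identical counts.

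Simple epithelium is a single layer of polarised cells, such as the lining of the gut or the early surface ectoderm. Its keratin filaments are obligate pairs of a type II chain (Krt8 or Krt7) and a type I chain (Krt18 or Krt19), and Krt8 with Krt18 is the earliest pair to appear in the embryo. Cdh1 (E-cadherin) holds neighbouring epithelial cells together at adherens junctions, and Epcam is a further cell surface adhesion molecule of epithelia. In an epithelial to mesenchymal transition, Snai and Twist family factors, which bind E-box sequences, are known to lower Cdh1, while the mesenchymal filament gene Vim rises. Endothelium is an epithelium by form but holds its cells together with Cdh5 and builds its filaments mainly from Vim.

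Promoter windows are shown for the keratin pair, because its genes varied together from cell to cell, for Krt7, another simple keratin, and for Epcam. RefSeq windows on GRCm38.p6, 250 bases before to 50 after the start, were found for these 4 members and not for Krt19 and Cdh1. They are chr15:102004293-102004592 on the minus strand for Krt8, chr15:102027966-102028265 on the plus strand for Krt18, chr15:101412153-101412452 on the plus strand for Krt7 and chr17:87635729-87636028 on the plus strand for Epcam. Each is printed along its gene's strand, with capitals for matches on either strand to 4 short motifs. The first motif was the E-box CACCTG. The next was GGGCGG, the core letters of a box bound by Sp family factors. The others were the box TATAAA and the box CCAAT.
Krt8: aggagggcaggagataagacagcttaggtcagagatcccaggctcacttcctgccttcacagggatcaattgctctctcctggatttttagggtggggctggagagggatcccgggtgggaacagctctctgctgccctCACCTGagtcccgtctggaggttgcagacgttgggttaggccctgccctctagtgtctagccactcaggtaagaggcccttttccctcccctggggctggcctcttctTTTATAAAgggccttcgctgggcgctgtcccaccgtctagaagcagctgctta
Krt18: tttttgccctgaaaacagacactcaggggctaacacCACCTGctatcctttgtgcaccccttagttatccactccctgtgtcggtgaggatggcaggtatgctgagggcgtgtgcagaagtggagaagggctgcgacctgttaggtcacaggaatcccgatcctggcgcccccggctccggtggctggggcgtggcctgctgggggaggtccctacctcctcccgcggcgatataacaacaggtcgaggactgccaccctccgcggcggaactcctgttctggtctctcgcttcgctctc
Krt7: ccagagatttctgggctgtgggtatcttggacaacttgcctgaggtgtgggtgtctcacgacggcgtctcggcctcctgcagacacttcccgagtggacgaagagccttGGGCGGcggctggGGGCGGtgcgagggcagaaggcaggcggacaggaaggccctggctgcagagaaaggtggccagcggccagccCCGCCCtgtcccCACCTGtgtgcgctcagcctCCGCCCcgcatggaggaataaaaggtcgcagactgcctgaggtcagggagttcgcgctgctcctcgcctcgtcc
Epcam: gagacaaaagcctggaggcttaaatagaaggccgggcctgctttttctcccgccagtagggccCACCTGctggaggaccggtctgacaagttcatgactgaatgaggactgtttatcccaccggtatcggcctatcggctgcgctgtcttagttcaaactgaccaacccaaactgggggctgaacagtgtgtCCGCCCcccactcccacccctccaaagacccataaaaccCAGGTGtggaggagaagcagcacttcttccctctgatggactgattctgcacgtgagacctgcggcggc
CACCTG was matched 1 time in the windows of Krt8, Krt18 and Krt7 and 2 times in that of Epcam, against 20.2% of all 32851 promoter windows with a match. TATAAA was matched in Krt8 alone of the 4 (2 overlapping matches, 1 on each strand; 13.6% of all windows have one). GGGCGG was matched 4 times in Krt7 and 1 time in Epcam (35.7% of all windows), and CCAAT in none of the 4 (37.4% of all windows). The starts of Krt8 and Krt18 lie 23874 bases apart on opposite strands, with no protein-coding gene of the RefSeq table between them. These matches describe letters in a window and say nothing on whether a factor binds there.

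Detected transcripts of the 6 genes ranged from frequent to barely above the dimmest genes of the panel. Probe sets differ between genes, so an order of genes is one of detected transcripts and not of RNA levels. Krt8 ranked 99th of 998 genes with 14522 transcripts, 14.7 per 10000, and was found in 20.8% of cells, with up to 30 transcripts in a cell. Krt18 ranked 208th (8.98 per 10000; 15.2% of cells) and Cdh1 243rd (8.33 per 10000; 15.04% of cells). Krt19 ranked 350th with 6.89 per 10000 in 12.1% of cells, and Krt7 780th with 4.37 per 10000 in 9.28% of cells. Epcam ranked 966th, with 2.85 per 10000 in 5.96% of cells, and was only 1.13-fold above the mean of the 50 dimmest panel genes. That mean, used here as a floor because negative control probes were not used, stood 5.85-fold below Krt8 and 1.74-fold below Krt7.

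In sums per section, fewer cells of a type and less RNA per cell cannot be told apart. Section by section, all 6 genes overlapped between the embryos. Krt8, the type II keratin of the pair, was at 9.24, 15.1 and 21.9 per 10000 (lowest, median and highest) in the knockout and at 10.2, 11.5 and 29.3 in the wild-type sections. The highest wild-type values were in section 21 (29.3) and section 22 (20.96), and the other 7 lay at or below 14.3. Krt18, its type I partner, was at 5.58, 8.92 and 11.7 in the knockout and at 5.16, 7.23 and 14.5 in the wild-type sections. The same sections 21 (14.5) and 22 (10.99) were the highest of the wild-type embryo for Krt18. Krt19 was at 5.64, 6.52 and 9.17 in the knockout and at 5.88, 6.86 and 11.03 in the wild-type sections, with section 21 again on top. Krt7 was at 1.42, 4.24 and 5.03 in the knockout and at 4.09, 4.87 and 6.29 in the wild-type sections. Cdh1 was at 2.37, 7.32 and 10.6 against 7.94, 9.95 and 11.5, and most knockout sections were below the wild-type median. Epcam was at 1.36, 2.49 and 3.53 in the knockout and 2.27, 3.13 and 3.70 in the wild-type sections. The floor moved the same way as these last 3 genes, from 2.12 to 2.59 in the knockout to 2.70 to 2.90 in the wild-type sections.

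**Figure D1:**
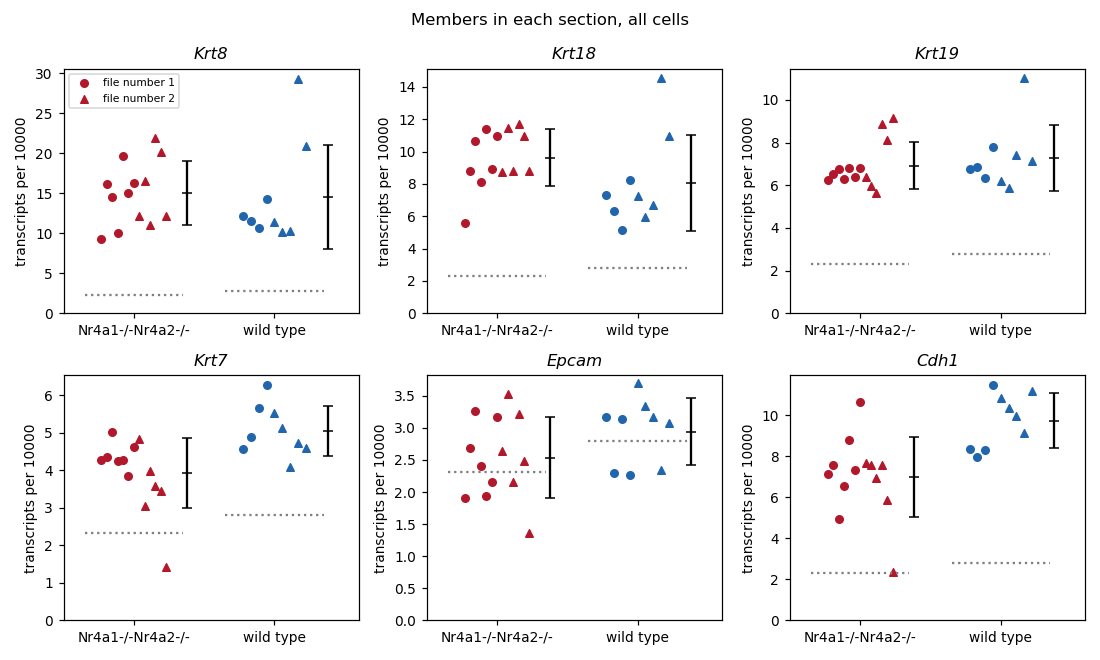
Transcripts per 10000 (linear axis from 0) of each of the 6 genes in each section over all cells, red for the Nr4a1-/-Nr4a2-/- and blue for the wild-type embryo; circles and triangles are sections with file number 1 and 2, black bars are mean ± SD over sections and the dotted line is the mean of the 50 dimmest genes. The embryos overlap for every gene, and Epcam lies near the dotted line.

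Tested with edgeR over all 998 genes with TMM scaling, Krt18 was higher in the knockout sections and the other 5 genes did not pass the threshold. Krt18 was higher by 0.53 on the log2 scale (SE 0.16, adjusted p = 0.0208). Thus 1 of the 6 genes was called, where 12.5% of the panel was called in either direction. Of cell type markers, 2 of 10 of mesenchyme were higher, and 1 of 7 of hematopoietic cells and 1 of 4 of cardiomyocytes were lower. Their part in the Krt18 value was not tested. Krt8 differed by 0.32 (SE 0.19, adjusted p = 0.282) and Krt19 by 0.20 (SE 0.10, adjusted p = 0.216). Krt7 (-0.07, adjusted p = 0.688), Epcam (0.07, adjusted p = 0.767) and Cdh1 (-0.19, adjusted p = 0.359) were also not called. The scaling matters here: with library size alone the median log2 difference over all genes moved from -0.03 to -0.30. Under it Krt18 was no longer called (0.26, adjusted p = 0.105), whereas Krt7 (-0.34, adjusted p = 0.0105) and Cdh1 (-0.46, adjusted p = 0.00439) were called lower in the knockout sections, and Krt19 (-0.07) and Epcam (-0.20) changed sign. Within file number 1 Krt18 differed by 0.70 (adjusted p = 0.018) and within file number 2 by 0.49 (adjusted p = 0.173). Without wild-type section 21, Krt8 (0.53) and Krt19 (0.30) were called as well.

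To place the genes in cell types, cells were clustered in each embryo on 978 genes, without the 6 members and the 14 other keratins of the panel, so that no member could define a cluster. The rest of the panel helped to form the clusters, so its share of calls between clusters, given beside the members, is a background with that limit. An EC-like (endothelial) cluster held 1533 knockout and 1558 wild-type cells, and all 8 of its markers, Cdh5, Pecam1, Vwf, Dll4, Kdr, Tie1, Tek and Esam, were at least 1.5-fold up in both embryos. In the wild-type embryo the hemoglobin probe Hba-a1/2 was also among its leading genes. An HC-like (hematopoietic) cluster held 1196 and 1199 cells, with 4 of 7 markers up, led by hemoglobin genes. A collagen-led cluster of 1861 and 2436 cells had Col1a1, Lum, Acta2, Tagln, Tpm2, Col1a2 and Col3a1 among its leading genes. It raised 3 of 10 mesenchyme markers in the knockout and 6 of 10 in the wild-type embryo, and 4 of 6 smooth muscle markers and 2 of 4 cardiomyocyte markers in both, and is therefore named by its genes. In its cells the summed level of the smooth muscle markers was 100.5 to 630.6 per 10000 in the knockout and 108.7 to 246.0 in the wild-type sections, and that of the cardiomyocyte markers 20.8 to 124.8 and 25.2 to 56.3. None of these markers was at 0, and their part in the keratin levels of the cluster was not tested. The Twist1-led cluster was the largest, 14608 and 9555 cells, with lower totals (median 145 and 159 transcripts a cell, against 219.5 to 324 in the other named clusters). Of the 10 mesenchyme markers it raised 1 in each embryo, Twist1. Clusters without a name, 4 in each embryo with 1993 and 1631 cells, were pooled. No cluster raised more than 5 of 11 epithelial markers, so no cluster was called epithelial-like.

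In EC-like cells, transcripts of Krt8, Krt18 and Krt19 were detected at lower levels than in the other cells of the same sections, but they were not absent. Krt8 was at 5.67, 10.5 and 14.6 per 10000 (lowest, median and highest) in the EC-like cells of the knockout and at 6.56, 9.21 and 12.7 in those of the wild-type sections. Krt18 was at 3.40, 6.19 and 7.81, and at 2.78, 5.43 and 7.22. In every section the floor was below the Krt8 level of these cells (floor at most 2.54 in the knockout and 2.87 in the wild-type sections). With the section as a block, edgeR gave -0.56 for Krt8 (log2, EC-like minus all other cells; SE 0.08, adjusted p = 5.29e-07), -0.68 for Krt18 (SE 0.08, adjusted p = 4.88e-13) and -0.39 for Krt19 (SE 0.08, adjusted p = 3.44e-05). Epcam was at -0.30 (SE 0.12, adjusted p = 0.0475), a call that was lost without any of 16 of the 22 sections in either embryo alone, and when EC-like cells were taken as those with at least 2 detected markers. In the wild-type sections alone Krt8 was at -0.59 and not called (adjusted p = 0.0578). Krt7 (-0.09, adjusted p = 0.603) and Cdh1 (-0.10, adjusted p = 0.355) did not pass. Of the 6 genes, 4 were thus lower, where 13.7% of the panel was called lower. The count was 3, without Epcam, under DESeq2, cells of at least 50 transcripts, 1 mixture for both embryos, another random start or 12 clusters per embryo (Epcam adjusted p = 0.0543 to 0.0798), and with library size alone it was 5, with Cdh1 added.

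The shares of EC-like cells with a transcript were compared at equal depth. When every cell with at least 100 transcripts was thinned to 100, the mean share of EC-like cells with Krt8 was 9.10% ± 1.93 (SD, n = 13) in the knockout and 7.69% ± 1.93 (SD, n = 9) in the wild-type sections. Over all cells the shares were 11.9% ± 2.49 and 11.7% ± 3.85. Unthinned, 21.9% and 18.8% of EC-like cells had Krt8, and the share was below that of all cells at matched depth in 21 of 22 sections. For Krt18 the thinned shares were 5.45% ± 1.67 and 4.60% ± 1.68 in EC-like cells, against 8.29% ± 1.26 and 7.06% ± 2.19 in all cells. Epcam had 2.20% ± 0.69 and 2.16% ± 0.92 in EC-like cells, while the mean of the 50 dimmest genes had 2.16% and 2.36%. The share of EC-like cells with Epcam was therefore at background and is not read as expression. Cdh1, at 5.79% ± 2.62 and 7.76% ± 2.50, and Krt7, at 3.69% ± 1.44 and 3.82% ± 1.17, were above that background. Its 50 genes were picked as the dimmest in these data, so the rest of the panel lies above them over all cells. There Krt7 had 0.76-fold and Cdh1 1.45-fold the transcripts of the median panel gene. The shares of these 2 genes alone are therefore not read as expression in EC-like cells either.

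Between the embryos, EC-like cells repeated the Krt18 difference with a narrow margin. Krt18 was higher in the knockout sections by 0.47 (SE 0.17, adjusted p = 0.0478) and Krt8 by 0.39 (SE 0.14, adjusted p = 0.0601). Of the 5 genes tested, 1 was called, where 11.1% of the panel was called; Epcam failed the filter on low counts. The Krt18 call was lost on leaving out knockout section 4, 6, 7, 9, 10 or 11 or wild-type section 15, 16, 17, 18, 19 or 22 (differences of 0.38 to 0.50), and within either file number. It was lost too with limma voom and a random block, with no gene filter and with cells of at least 50 transcripts. The same held with 1 mixture for both embryos and with EC-like cells taken by at least 2 detected markers. With library size alone Krt18 was at 0.27 (adjusted p = 0.215), and Cdh1 was called lower in its place (-0.47, adjusted p = 0.0339). Markers of other cell types also differed between the embryos in these cells. Of 6 smooth muscle markers, 4 were higher in the knockout sections (list median 0.53), with a summed level of 43.8 to 87.7 per 10000 against 41.3 to 74.8. Of 7 HC-like markers, 3 were lower (list median -0.38), with 126.4 to 383.3 against 351.5 to 625.9. Of 10 mesenchyme markers 2 were higher, while 2 of 11 epithelial markers and 1 of 4 cardiomyocyte markers were lower. None of these markers was at 0, and their part in the Krt18 value was not tested. The test of the difference itself, EC-like against other cells between the embryos, called none of the 6 genes (0 at an unadjusted p under 0.05, 0 of the 3 that DESeq2 tested), where 3.21% of the panel was called. For Krt8 that interaction was 0.03 (SE 0.18) and for Krt18 -0.06 (SE 0.16).

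In the collagen-led cluster Krt8, Krt18 and Krt19 went the other way over all sections together, while Krt7 was lower, and Krt8 reached its highest levels. In the wild-type sections, however, the median Krt8 level of these cells, 10.1 per 10000, was below the 11.5 of all cells. The knockout sections 1 to 13 had 7.34, 34.97, 31.1, 6.10, 38.7, 29.7, 33.2, 24.1, 34.98, 15.9, 64.9, 43.5 and 16.4 Krt8 transcripts per 10000 in these cells. The wild-type sections 14 to 22 had 11.9, 9.14, 7.17, 16.3, 10.1, 9.31, 7.06, 51.6 and 43.8. Knockout sections 1 and 4 were thus far below the other 11, and wild-type sections 21 and 22 far above the other 7. The next wild-type section, 17, was level with the lowest of those 11 knockout sections, 10 and 13. Krt18 followed, at 5.14, 12.5 and 25.3 (lowest, median and highest) in the knockout and at 4.42, 6.98 and 23.6 in the wild-type sections. Again the wild-type sections 21 and 22 stood apart, at 23.6 and 18.6, from the other 7, at or below 10.1.

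**Figure D2:**
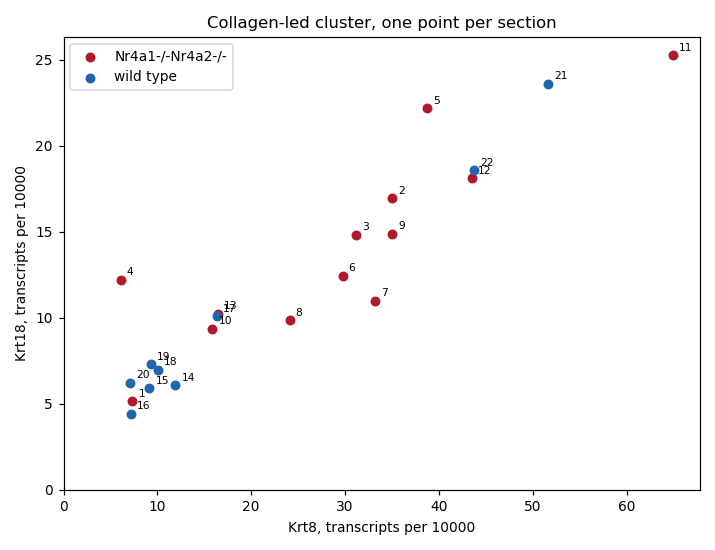
Krt18 against Krt8 in the collagen-led cluster, both in transcripts per 10000 on linear axes from 0, 1 point per section with its number, red for the Nr4a1-/-Nr4a2-/- and blue for the wild-type embryo. Wild-type sections 21 and 22 lie among the knockout sections with high values, and knockout sections 1 and 4 among the wild-type sections with low Krt8.

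Against the other cells of the same sections, Krt8 was higher in the collagen-led cluster by 0.91 (log2; SE 0.19, adjusted p = 0.000765), Krt18 by 0.66 (SE 0.13, adjusted p = 3e-04) and Krt19 by 0.45 (SE 0.09, adjusted p = 0.000164). Krt7 was lower, at -0.28 (SE 0.09, adjusted p = 0.013). Epcam (-0.18, adjusted p = 0.216) and Cdh1 (-0.14, adjusted p = 0.143) did not pass. Epcam was called lower with library size alone (-0.34, adjusted p = 0.00873) and with 1 mixture for both embryos (-0.33, adjusted p = 0.0177), and Cdh1 with library size alone (-0.30, adjusted p = 0.000435). The panel had 15.2% of genes called higher and 10.6% called lower, against 3 and 1 of the 6 genes. In the knockout sections alone, Krt8 (1.23, adjusted p = 0.00043), Krt18 (0.73, adjusted p = 0.000234) and Krt19 (0.53, adjusted p = 0.000205) were called. In the wild-type sections alone, Krt8 (0.48, adjusted p = 0.345), Krt18 (0.58, adjusted p = 0.109) and Krt19 (0.36, adjusted p = 0.051) were not, and Krt7 was the only member called (-0.40, adjusted p = 0.0153).

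The test of that difference between the embryos called none of the 6 genes (1 at an unadjusted p under 0.05, 0 with DESeq2), where 7.01% of the panel was called. Krt8 had the widest interaction, 0.74 (SE 0.35, adjusted p = 0.287). With 12 clusters per embryo, a setting chosen after seeing the data, Krt8 was called (1.31, SE 0.35, adjusted p = 0.0153), the only one of the 6 genes. That setting called 19 panel genes with a positive and 104 with a negative interaction, where 8 clusters gave 7 and 63. It also left 20 of the 22 sections, since knockout sections 1 and 13 had 5 and 1 such cells, and its knockout collagen-led cluster of 999 cells raised 2 of 6 smooth muscle markers, against 4 of 6 in the wild-type one. Which of these changes brought the call was not tested. Within the collagen-led cluster itself, the embryos differed by 0.79 for Krt8 (SE 0.43, adjusted p = 0.507) and by 0.63 for Krt18 (SE 0.31, adjusted p = 0.426). Cdh1 differed by -0.37 (SE 0.15, adjusted p = 0.261). None of the 6 genes was called (1 at an unadjusted p under 0.05, 0 of the 4 that DESeq2 tested), where 0.808% of the panel was called. At 100 transcripts a cell, 22.5% ± 9.36 (SD, n = 13) of knockout and 14.01% ± 10.7 (SD, n = 9) of wild-type collagen-led cells had Krt8, and 12.2% ± 4.67 and 8.60% ± 5.39 had Krt18. At this depth the Krt8 share was above that of all cells in 15 of 22 sections, and the Krt18 share also in 15. Unthinned, the Krt8 shares were 42.9% and 25.02%, in cells whose median total was 324 and 219.5 transcripts.

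The result depends on which cells stand for mesenchyme. A gate that took any cell with at least 2 mesenchyme markers, and thereby many Twist1-led cells, gave -0.05 for Krt8 (adjusted p = 0.572), 0.03 for Krt18 and -0.19 for Krt19 (adjusted p = 0.000939) against the remaining cells. Under the gate Epcam (-0.54, adjusted p = 2.24e-05) and Cdh1 (-0.21, adjusted p = 0.000529) were called lower too.

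In the Twist1-led cluster, Epcam and Krt18 passed as higher, and Epcam lay near the floor. The leading genes of the cluster included Sox2 in the knockout and Stmn1 in the wild-type embryo. Epcam was at 1.10, 2.48 and 4.28 per 10000 (lowest, median and highest) in the knockout and at 1.78, 3.16 and 3.93 in the wild-type sections. The floor had medians of 2.17 and 2.74 in these cells, so Epcam stayed close to it. Thinned to 100 transcripts, 2.40% ± 0.81 (SD, n = 13) of the knockout and 2.50% ± 0.64 (SD, n = 9) of the wild-type cells had Epcam, while the mean of the 50 dimmest genes had 2.04% and 2.55%. These shares differed from that background by less than their SD and are not read as expression. Against the other cells of the same sections Epcam was higher by 0.42 (log2; SE 0.09, adjusted p = 0.00011), and Krt18 by 0.20 (SE 0.07, adjusted p = 0.014). These were 2 of 6 genes, where 45% of the panel was called in either direction. Of 5 neural markers 4 passed as higher and 0 as lower, and of 11 epithelial markers 4 and 0. All 8 EC-like and all 6 smooth muscle markers passed as lower. These markers helped to form the cluster, and their part in the Epcam and Krt18 values was not tested. Krt8 was at -0.22 (adjusted p = 0.0901), Krt19 at 0.11 (adjusted p = 0.0744) and Cdh1 at 0.10 (adjusted p = 0.0761). Between the embryos, Krt18 was higher in the Twist1-led cells of the knockout sections by 0.66 (SE 0.14, adjusted p = 0.000949), the only one of the 6 genes called, where 14.9% of the panel was called. Of 10 mesenchyme markers 5 were higher there too (list median 0.27; summed level 158.6 to 267.1 per 10000 in the knockout and 163.5 to 207.5 in the wild-type sections). Of 6 smooth muscle markers 1 was higher, with 35.8 to 72.03 against 40.5 to 48.4, and of 7 HC-like markers 2 were lower, with 34.7 to 54.2 against 53.6 to 83.1. None of these markers was at 0, and their part in the Krt18 value was not tested.

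HC-like cells had less Krt8 (-0.44, SE 0.11, adjusted p = 0.000636) and Krt18 (-0.57, SE 0.14, adjusted p = 0.00108) and more Krt7 (0.29, SE 0.09, adjusted p = 0.00465) than the rest. This was 3 of 6 genes, in a comparison that called 61.2% of the panel. The unnamed clusters had less Krt8 (-0.26), Krt18 (-0.46) and Krt19 (-0.22) and more Cdh1 (0.14, SE 0.06, adjusted p = 0.0454), with 46.7% of the panel called. The floor was also higher in the unnamed clusters, 3.02 per 10000 in the knockout and 3.25 in the wild-type cells against 2.31 and 2.79 in all cells, and its part in the Cdh1 value was not tested.

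Ordered by mean level in the knockout sections, Krt8 ran from the collagen-led (29.3 ± 15.9, SD, n = 13) over the unnamed (15.4 ± 3.85) and Twist1-led (12.3 ± 2.28) to the EC-like (10.3 ± 2.47) and HC-like cells (9.498 ± 2.80). Each neighbouring pair in this order overlapped within its SD over sections, and so did those for the wild-type sections, where the collagen-led mean was 18.5 ± 16.9 (SD, n = 9). The wild-type order differed at its end, with the HC-like (12.5 ± 1.79) before the EC-like cells (8.93 ± 2.02). Cdh1 had another order, with the unnamed clusters on top (10.5 ± 2.62 in the knockout and 11.3 ± 1.48 in the wild-type sections) and the collagen-led cells lowest in both (5.89 ± 1.93 and 8.27 ± 1.49).

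**Figure D3:**
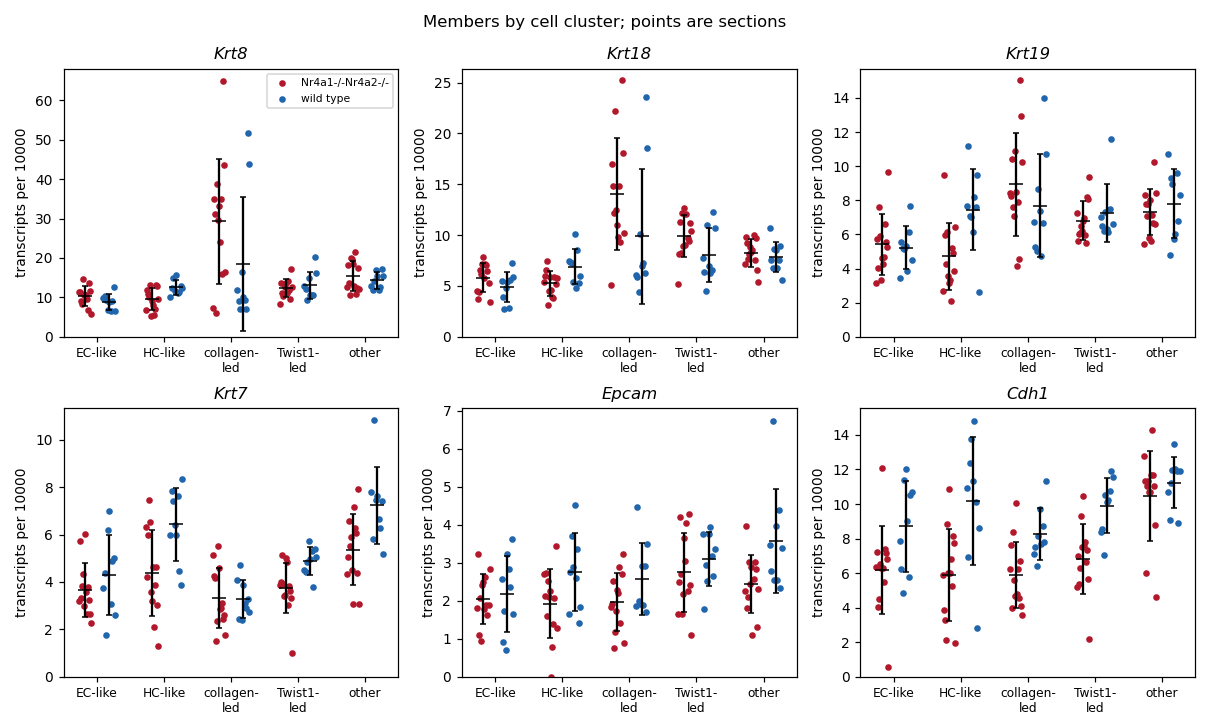
Transcripts per 10000 (linear axes from 0) of each gene in 5 sets of clusters, with 1 point per section, red for the Nr4a1-/-Nr4a2-/- and blue for the wild-type embryo, and black bars for mean ± SD over sections. Krt8 and Krt18 spread upward in the collagen-led cluster alone, while Krt7, Epcam and Cdh1 do not.

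Next, it was asked whether the 6 genes were found in the same cells more often than cells of equal total would give. In each section, cells were placed in 20 bins by total count, and the number of cells with both genes of a pair was set against the number expected if the genes fell independently within each bin. Krt8 and Krt18 were together in 1593 knockout cells, where 1144 were expected, a ratio of 1.39, and in 951 wild-type cells, where 760.2 were expected, a ratio of 1.25. Epcam and Cdh1 were together in 405 cells where 285.1 were expected (1.42) and in 362 where 298.3 were expected (1.21). Krt18 with Krt19 had ratios of 1.28 and 1.15, and the other 12 pairs lay between 0.95 and 1.28. The excess was seen for Krt8 with Krt18 in 13 of 13 knockout and 8 of 9 wild-type sections, and for Epcam with Cdh1 in 12 of 13 and 7 of 9.

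By the rule of a ratio of at least 1.5 in both embryos, 0 of the 15 pairs were called, and percent called over the panel was 0. The ratios of the 15 pairs were not tested against the panel. Of all 497503 pairs of panel genes, 46 were at or above Krt8 with Krt18 in both embryos, 35 were at or above Epcam with Cdh1, and 772 at or above Krt18 with Krt19. These counts include the pair itself. The median pair had 1.02 in the knockout and 1.01 in the wild-type sections, and the 95th percentile was 1.12 and 1.10. Krt8 with Krt18 and Epcam with Cdh1 thus stood near the top of the panel. By the lower ratio of both embryos, the first panel pair was Cd34 with Cdh5 (1.66 and 1.47). Tnxa with Tnxb (1.47 and 1.43) and Krt86 with Nr4a1 (1.43 and 1.42) followed. What such pairs share, be it cell type, gene position or probe sequence, was not tested, so a high rank alone does not show co-expression. Krt8 with Krt19, also a type II with a type I chain, was at the 98.9 percentile of panel pairs in the knockout and the 92.3 in the wild-type sections, and Krt19 with Epcam in the wild-type sections was at 0.95 (207 cells, 217.3 expected).

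**Figure D4:**
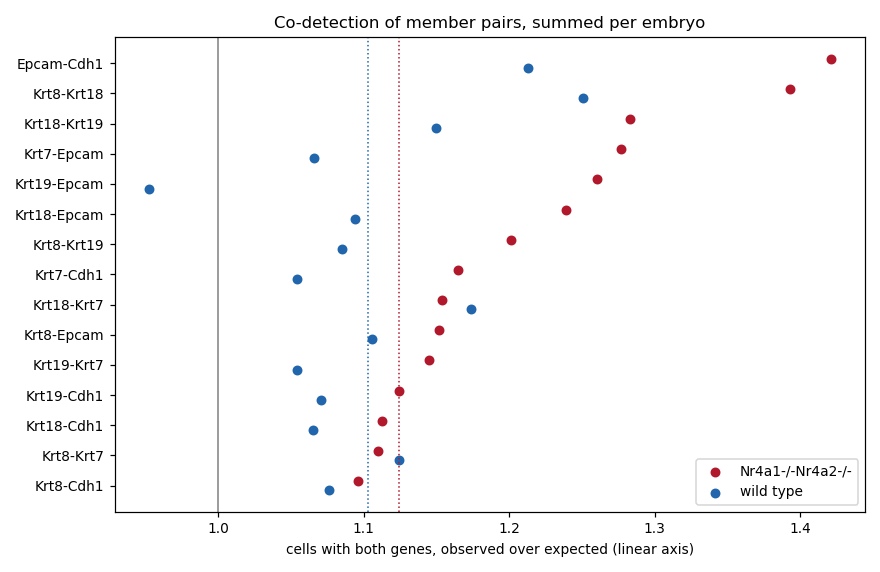
Cells with both genes of a pair, observed over expected at equal total count (linear axis), for the 15 pairs, red for the Nr4a1-/-Nr4a2-/- and blue for the wild-type embryo; dotted lines are the 95th percentiles of all panel pairs, 1.12 and 1.10, and the grey line marks a ratio of 1. Epcam-Cdh1 and Krt8-Krt18 have the highest ratios in both embryos.

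The expectation used decides how these ratios read. When the chance of detection came from a Poisson rate instead of the observed share in each bin, the mean log2 ratio of Krt8 with Krt18 fell to -0.31 and -0.34. All 15 pairs fell under that rate, to ratios between 0.67 and 1.01, so the fall was not particular to this pair. No panel background was taken under it. With bins, the mean log2 ratio of Krt8 with Krt18 was 0.47 ± 0.14 (SD, n = 13) in the knockout and 0.27 ± 0.17 (SD, n = 9) in the wild-type sections. The difference of 0.20 had p = 0.00571 in a two-sided exact permutation test over sections. Within file number 2 the difference was 0.17 (exact permutation p = 0.0173), within file number 1 it was 0.25 (exact permutation p = 0.0909), and with the Poisson rate it was 0.04 (exact permutation p = 0.629). Section 17 was the only section with fewer cells than expected (35 cells, 38.5 expected).

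Ratios were also taken within clusters, with 5 bins of total count in place of 20, so that cells were matched less closely, and without a panel background. Within the Twist1-led cluster, Krt8 with Krt18 had ratios of 1.52 and 1.33 and Epcam with Cdh1 of 1.602 and 1.37, in knockout and wild-type cells. Within EC-like cells, Krt8 with Krt18 had 1.36 (90 cells, 66.2 expected) and 1.39 (77 cells, 55.5 expected). Within the collagen-led cluster it was 1.16 and 1.14, and within HC-like cells 1.06 and 1.09. Differences between clusters were not tested. Counting all 6 genes at once, 556 knockout cells had 4 or more of them where 337.1 were expected, and 413 wild-type cells had where 305.2 were expected. All 6 were found in 23 knockout cells (3.18 expected) and 8 wild-type cells (3.06 expected). No other sets of 6 panel genes were counted this way, so these numbers have no panel background. Cells with 3 or more members had high totals (median 552 and 542 transcripts, against 201 and 205 in all cells), and totals still vary within a bin.

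Cells rich in a member were few. At least 3 Krt8 transcripts were found in 1444 cells, which held 42.8% of all Krt8 transcripts. Of those cells, 39.5% in the knockout and 35.4% in the wild-type sections were in the collagen-led cluster, which held 8.78% and 14.9% of all cells. At least 3 Epcam transcripts were found in 97 cells, 61 knockout and 36 wild-type, and 83.6% and 69.4% of them were in the Twist1-led cluster, which held 68.9% and 58.3% of all cells. Such cells had high totals (median 638 and 553 transcripts), so their other genes were compared at equal total count. Cdh1 was found in 59.0% of the Epcam-rich knockout cells, with 29.8% expected, and in 50% of the wild-type ones, with 35.7% expected. Krt18 was found in 67.2% (34.1% expected) and 44.4% (29.0% expected), and Krt7 in 26.2% (18.7% expected) and 25% (24.2% expected). Compared with the 100 panel genes closest in total count, the share of transcripts in cells with 3 or more was matched or passed by 11 for Krt8, 9 for Krt18, 7 for Krt19 and 9 for Epcam, but by 52 for Cdh1 and 97 for Krt7. The last 2 genes were spread over cells like, or more evenly than, genes of their level.

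Correlations across cells, of counts corrected for the total of each cell and averaged over the 22 sections, described which panel genes varied with each member. The cells of a section share tissue, depth and segmentation, genes are not independent, and all values were low. Krt8 and Krt18 were each other's first gene (0.16, above 0 in 22 of 22 sections), and Epcam and Cdh1 likewise (0.06, above 0 in 20 of 22). After Krt18, Krt8 was closest to Col1a1 (0.12), Sparc (0.10), Shh (0.10) and Tpm1 (0.09). Such means join embryos that differed. Krt8 had 0.20 in the knockout and 0.09 in the wild-type sections with Krt18. With Col1a1 it had 0.16 and 0.06 (above 0 in 15 of 22 sections). Krt7 with Krt86 went the other way (0.06 and 0.08), and these differences were not tested. Col1a1 and Sparc encode matrix proteins, Tpm1 a tropomyosin of actin filaments, and Shh the ligand secreted by notochord, floor plate and early gut epithelium. Krt18 was closest, after Krt8, to Ezr (0.10), which links the membrane to actin in polarised epithelia, Tpm1 (0.08), Sparc (0.06) and Krt19 (0.06). For Krt19 the first 5 were Krt18 (0.06), Krt8 (0.06), Col18a1 (0.06), Igfbp5 (0.06) and Cxcl14 (0.06). Col18a1, a collagen of basement membranes, and the chemokine Cxcl14 also followed Epcam (0.05 and 0.04), before Krt18 (0.04) and Pdgfa (0.04). Over the whole panel, the 95th percentile of these correlations was 0.02 for each member to 2 decimals except Epcam, where it was 0.01.

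Krt7 varied with the keratin pair only weakly. It correlated with Krt18 at 0.030 (above 0 in 20 of 22 sections) and with Krt8 at 0.022 (17 of 22), where the 95th percentile of its correlations was 0.019. Its co-detection ratio was 1.15 and 1.17 with Krt18 and 1.11 and 1.12 with Krt8, in knockout and wild-type cells. These 4 ratios lay between the 93.2 and 98.9 percentiles of all panel pairs. The first 5 genes of Krt7 were others, Krt86 (0.07), Rarg (0.05), Krt4 (0.05), Krt6a (0.05) and Krt1 (0.05), so 4 of the 5 were keratins of stratified epithelia or hair. These keratins are also type II chains, as Krt7 is. The remaining type II keratins, Krt80 and Krt6b, ranked 6 and 8, and the closest of the other type I keratins, Krt20, ranked 93. The part of chain type or gene position in these values was not tested. Krt86 was also first for Krt7 within the collagen-led (0.10) and the Twist1-led cluster (0.06). Sequence shared between keratin probes was not examined. For Cdh1 the genes after Epcam were Nfatc3 (0.06), Adgrg3 (0.06), Nlrc5 (0.06) and Hsd17b2 (0.05). Within clusters, Krt18 stayed the first gene of Krt8 in collagen-led (0.16), Twist1-led (0.14) and EC-like cells (0.11). Shh was second for Krt8 in the Twist1-led cluster (0.13, above 0 in 17 of 22 sections), and Slc2a1, a glucose transporter, in the collagen-led cluster (0.15, above 0 in 18 of 22).

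Of the 6 mesenchymal genes, Twist1 lay at the other end for all 6 members and Vim and Snai1 for 4 each, while Snai2, Twist2 and Cdh11 were mixed. Twist1 was the lowest of the 997 other genes for Krt18 (-0.05) and Krt19 (-0.04), ranked 996 for Krt8 (-0.06) and 971 to 995 for Krt7, Epcam and Cdh1. Vim was the lowest for Epcam (-0.04) and ranked 996 for Cdh1 (-0.04), 995 for Krt7 (-0.04) and 966 for Krt19 (-0.01), and for Epcam and Cdh1 it was below 0 in 22 of 22 sections. With Krt8 and Krt18, Vim was near 0 (0.01 and 0.00). Snai1, the factor known to lower Cdh1, was at -0.02 with Krt8, Krt18 and Krt19 and -0.01 with Epcam (ranks 956 to 978) and at 0.00 with Krt7 and Cdh1, and Snai2 and Twist2 lay between -0.02 and 0.00 for all 6 genes. Cdh11, the cadherin of mesenchyme, was at 0.01 with Cdh1 (rank 181) and -0.02 with Epcam (rank 989).

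**Figure D5:**
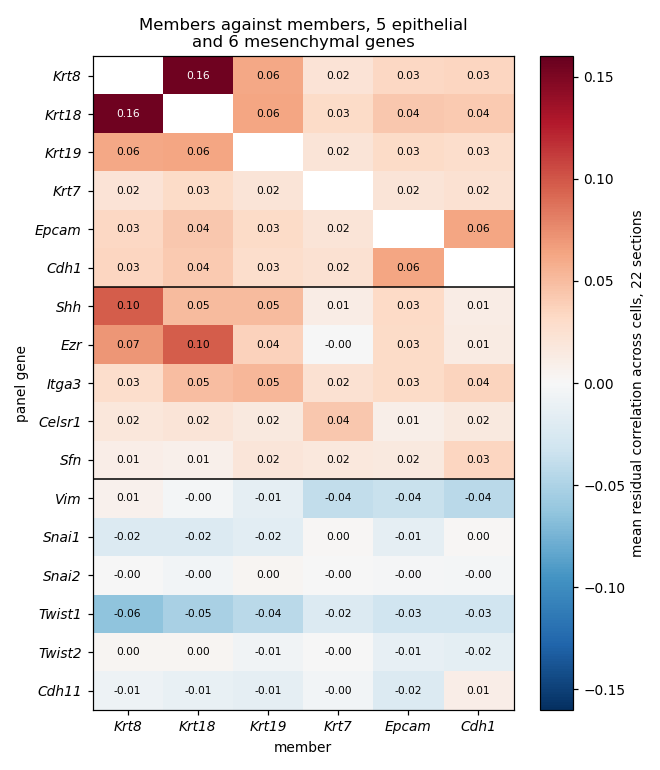
Mean over 22 sections of the correlation across cells between each of the 6 genes (columns) and, in rows, the 6 genes, the 5 epithelial genes with the highest sums and the 6 mesenchymal genes; red is above and blue below 0, and each value is printed to 2 decimals. Krt8 with Krt18 is highest at 0.16, and Twist1 with Krt8 lowest at -0.06.

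Other epithelial genes of the panel, 20 by a fixed list of epithelial and adhesion genes, gave a wider view. Summed over the 6 members, the correlations were highest for Shh (0.25), Ezr (0.25), Itga3 (0.22), an integrin chain of basement membrane contacts, Celsr1 (0.12), a planar polarity cadherin, and Sfn (0.10). In all cells, 2 of the 20 were higher in the knockout sections, Ezr (0.53, SE 0.12, adjusted p = 0.00277) and Ctnnb1 (0.80, SE 0.14, adjusted p = 0.000137), and Muc1 was lower (-0.32, SE 0.07, adjusted p = 0.00198). These 3 of 20 genes are near the 12.5% of the panel that was called. The median of the list was 0.00, beside -0.03 over all genes. Of the 6 mesenchymal genes, Vim (1.11, adjusted p = 2.27e-05), Twist1 (0.91, adjusted p = 0.00108) and Snai1 (0.35, adjusted p = 0.0451) were higher in the knockout sections, with a list median of 0.29. Of the 14 other keratins none was called (1 at an unadjusted p under 0.05), with a median of -0.12.

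The epithelial genes, unlike the members and the other keratins, were used to form the clusters, so their values between clusters are descriptions. In EC-like against other cells, 9 of the 20 passed the threshold as lower and 2 as higher, where 13.7% and 14.5% of the panel did, with a list median of -0.20 on the log2 scale beside -0.03 over all genes. Shh (-0.24), Ezr (-0.40), Itga3 (-0.22) and Sfn (-0.23) were among the lower ones, and Itga6 (0.88), an integrin chain that endothelium also uses, was the highest. In the collagen-led cluster, 4 of the 20 passed as higher and 1 as lower, near the 15.2% and 10.6% of the panel, with a list median of 0.03 beside -0.01. Among the higher ones were Ezr (0.78), Ddr1 (0.47) and Dst (0.33). Of the 6 mesenchymal genes, 1 passed as higher and 4 as lower in EC-like cells, and 3 as higher and 1 as lower in the collagen-led cluster. Vim was higher in both (1.25 and 1.11), and Twist1 was lower in both (-0.94 and -0.78). Snai2 was lower in EC-like cells (-0.22) and higher in the collagen-led cluster (0.44). Snai1 (-0.16) and Twist2 (-0.48) were lower in EC-like cells, and Cdh11 (0.80) was higher in the collagen-led cluster.

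The 14 other keratins of the panel differed between these comparisons. Across cells, 7 of them were among the 24 genes closest to Krt19, led by Krt16 (rank 8, 0.04, above 0 in 21 of 22 sections). All 7 are type I chains, as Krt19 is, and the closest type II keratin of the 14 was Krt6a (rank 60). For Krt8, a type II chain, the type II keratins Krt4 ranked 25 (0.04) and Krt6a 28 (0.03), while the closest type I keratin of the 14, Krt20, ranked 114. The part of chain type or gene position in these ranks was not tested. In EC-like against other cells none of the 14 was called by edgeR (0 at an unadjusted p under 0.05), with a median of -0.02. In the collagen-led cluster Krt1 (-0.24, SE 0.08, adjusted p = 0.0179) and Krt14 (-0.20, SE 0.08, adjusted p = 0.0384), the keratins of upper and basal layers of the epidermis, were lower, 2 of the 14 where 10.6% of the panel was, with a median of -0.10 over the 14. In HC-like cells 11 of the 14 were higher, with a median of 0.30, where 33.2% of the panel was called higher. Between the embryos, Krt86, a hair keratin, was lower in the EC-like cells of the knockout sections (-0.72, SE 0.22, adjusted p = 0.0162), the only 1 of the 14 called there, where 11.1% of the panel was called. In HC-like cells Krt15 was higher (0.46, SE 0.15, adjusted p = 0.0486) and Krt80 lower (-0.63, SE 0.20, adjusted p = 0.0323) in the knockout sections, 2 of the 14, where 7.79% of the panel was called. In the same cells 4 of 10 mesenchyme markers were higher in the knockout sections (list median 0.61; summed level 45.6 to 88.6 per 10000 against 50.5 to 75.0), and so were 2 of 8 EC-like markers, Cdh5 (0.85) and Pecam1 (0.62), with a summed level of 55.1 to 94.5 against 69.5 to 77.3. Of 7 HC-like markers 2 were higher, with a summed level of 1636 to 3054 against 717 to 1196 and no overlap. Of 6 smooth muscle markers 1 was lower. None of these markers was at 0, and their part in the keratin values was not tested.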

How the data were processed

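The authors deposited, for each of 22 sections, raw transcript counts per gene and segmented cell, without normalization, made in AtoMx; the submitters' processing notes name Seurat. A genome build is not given in the sources used here. Some label fields call the tissue paraffin-embedded and the probe panel human, others call the embryos fresh frozen and from mouse; this was not settled. Genes, lists and tests were chosen with earlier results of these data known.

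Clusters came from a negative binomial mixture (size 10, 5 starts, 8 clusters per embryo; Python 3.11.15, numpy 2.4.6, scipy 1.17.1). None passed the design's rule for mesenchyme in both embryos with 5 to 12 clusters, so the collagen-led cluster took that place, a departure chosen after the data were seen, as was the number of clusters. The marker gate took cells with at least 2 detected markers. Named genes were the members, the 5 panel genes that correlated best with each, called keratins, the mesenchymal list and the 5 epithelial genes with the highest summed correlation; others were named after their values were seen. Counts summed per section were fitted with edgeR 4.0.16 (limma 3.58.1, R 4.3.3; TMM, filterByExpr, robust quasi-likelihood test, Benjamini-Hochberg, threshold 0.05). Alternatives were DESeq2 1.42.0, library size alone, other filters and clusterings, file numbers, a random block and leaving out each section. The scripts were tested on simulated data. P-values measure only the spread between sections of an embryo, and expected numbers of cells carry counting error only. A gene of the epithelial list is not reported here by name.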

Additional observations from a re-analysis of the deposited data

Results flagged for a closer look

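Of 25 groups of 9 wild-type sections examined for a lone value, 3 had one beyond Dixon's critical value of 0.493, and chance alone flags about 1 group in 20. Krt19 over all cells was at 11.03 transcripts per 10000 in wild-type section 21, with a gap of 0.628 of the group's range to the next section. In the Twist1-led cluster Krt19 was at 11.6 in the same section, with a gap of 0.761 of the range. The log2 ratio of observed to expected cells with Krt8 and Krt18 was -0.1357 in wild-type section 17, with a gap of 0.559 of the range.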

How the results depend on the processing

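The number of members called between the embryos in all cells was 2 with library size alone and 0 within file number 2, and 1 to 3 on leaving out sections, with 3 without wild-type section 21. In EC-like cells it was 1 with library size alone, where Cdh1 took the place of Krt18, 2 with DESeq2 and 0 with no gene filter, cells of at least 50 transcripts, either file number, limma voom with a random block, 1 mixture for both embryos and the marker gate, and 0 to 2 on leaving out sections. In the collagen-led cluster it was 1 within file number 1 and 0 to 0 on leaving out sections. Among all panel genes, all cells gave 777 calls with library size alone, 55 within file number 1 and 104 to 161 on leaving out sections, against 125. EC-like cells gave 223, 29, 63 and 51 with library size alone, file number 1, 1 mixture and the marker gate, and 90 to 122 on leaving out sections, against 108. The collagen-led cluster gave 30, 2, 75 and 52 with DESeq2, file number 2, the marker gate and 12 clusters, and 3 to 12 on leaving out sections, against 8. In the wild-type sections alone, EC-like against other cells gave 2 members and 142 genes, and collagen-led against other cells 1 member; the latter gave 556 genes with library size alone. The difference between the embryos in the collagen-led contrast called Krt8 with 12 clusters (1.31), with 19 positive and 104 negative panel genes against 7 and 63; knockout sections 1 and 13 dropped out of this setting, which kept 20 sections. The settings of 12 clusters and of 1 embryo alone were chosen after seeing the data. Under the marker gate Krt8 (-0.0512) and Krt19 (-0.193) reversed in the mesenchymal comparison. The difference in Krt8-Krt18 co-detection was 0.25 within file number 1 and 0.0355 with the Poisson rate (neither past the threshold), and 0.15 to 0.23 on leaving out sections. With log values, 19 of the 30 correlated genes were shared. The causes of these changes were not tested. Of all values recomputed, 1490 kept their side of the threshold or moved by less than the spread, 30 of these with the other sign but without a call, 57 lost and 22 gained a call, 47 counts moved by over 1.5 times and 2 called values reversed. No paired analysis was possible because the sections of the 2 embryos share no replicate numbers. Epcam lay near the dimmest genes of the panel, which limits what its values show.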
